A study of Mus musculus with 8 samples.

Results

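The collagen genes were taken as every protein-coding gene of the deposited count table whose symbol reads Col, a number, the letter a and a number, such as Col1a1. This rule found 44 genes among the 54532 of the table, of which 36 were among the 15963 genes with enough counts to be tested. By their type number they were grouped into 9 fibrillar chains (types 1, 2, 3, 5 and 11), 8 basement membrane chains (types 4, 15 and 18), 6 chains of collagen VI and 21 other chains. The rule used symbols only and no measured value.

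RNA was measured in the stromal vascular fraction (SVF) of gonadal white adipose tissue (WAT), the cell pellet left after collagenase digestion of the fat pad once the adipocytes have floated off. All mice were male C57BL/6J and received a high-fat diet (HFD, 60% of calories from fat) for 12 weeks. The series text gives an age of 6 weeks at its start, while the study's methods give a greater age for the mice obtained, so the age is not settled. All were then moved to a normal chow diet (NCD, 16% of calories from fat) and injected at 2 mg/kg every 2 weeks for 6 weeks, until week 18. The control Ab group (mice 1, 2, 6 and 9) received an IgG1k isotype antibody, and the anti-BAFF Ab group (mice 5, 7, 8 and 10) received clone Sandy-2, which neutralizes B cell-activating factor, a survival cytokine of B cells. Every mouse had been obese and had then changed diet, so no lean mouse and no mouse kept on HFD is part of the comparison. The question was whether BAFF neutralization during this diet intervention went with a different level of any collagen chain in the SVF.

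Collagens are extracellular matrix proteins built from alpha chains that wind around each other in a helix. Fibrillar collagens form the tension-bearing cables of connective tissue, collagen IV forms the sheet of basement membranes around vessels and adipocytes, and collagen VI forms beaded filaments that are abundant around fat cells. In adipose tissue the chains are made mainly by fibroblasts and adipocyte progenitors, by endothelial and mural cells and by the mesothelium on the surface of the pad, and the collagen network of WAT is known to expand in obesity. The data are transcript levels, so protein deposition and turnover were not measured.

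By edgeR's quasi-likelihood test with Benjamini-Hochberg adjustment, 0 of the 36 collagen genes had an adjusted p under 0.05 for the antibody comparison. The same threshold was passed by 0.0564% of the genes tested, 9 in number and each lower with anti-BAFF Ab. With DESeq2, 0 collagen genes and 0.229% of the 30626 genes that received a p-value were called. At an unadjusted p under 0.05, edgeR's quasi-likelihood test placed 2 collagen genes, Col12a1 (higher) and Col6a5 (lower), against 1.9% of all genes (0.664% higher and 1.24% lower). The 4 values of the groups overlapped for every tested collagen gene. Over all genes tested, 1.48% did not overlap, a share too small for 0 of 36 genes to stand out. The median log2 fold change (anti-BAFF Ab over control Ab) of the 36 tested collagen genes was 0.01, with 18 above 0 and 18 below, and over all genes tested it was 0.00. In bulk RNA, fewer cells of a type and less RNA per cell cannot be told apart.

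The libraries held 13562340 to 18548024 counts. Levels are given as CPM, counts scaled to a common TMM-normalised library size, and a floor of 3 counts equals 0.219 CPM in the shallowest library, for counting error only. Control Ab-treated mouse 1 stood apart before any comparison: it was the highest or the lowest of the 8 mice for 26.7% and 26.2% of all genes tested. Its summed level of mesothelial markers was 259 CPM against 410 to 745 CPM in the other 7 mice. Its fibroblast and adipocyte progenitor markers summed to 1277 CPM (1543 to 2221 CPM in the others), its endothelial markers to 567 CPM (641 to 1037 CPM) and its mural and smooth muscle markers to 465 CPM (713 to 1222 CPM). Its macrophage marker sum was the highest, at 4450 CPM against 3277 to 4119 CPM. Mouse 1 was the highest mouse for 3 of the 5 macrophage markers. It was the lowest for 5 of the 6 fibroblast and 5 of the 6 mural markers. Anti-BAFF Ab-treated mouse 5 had the highest neutrophil marker sum (88.2 CPM against 3.58 to 13.0 CPM). S100a8, S100a9, Ly6g and Cxcr2 were each highest in mouse 5, but Retnlg was highest in mouse 1 (3.10 CPM against 1.28 CPM in mouse 5). Mice 2 and 7, 1 of each group, had the highest epididymis marker sums (1634 and 1632 CPM). B cell markers, the population that BAFF maintains, summed to 28.2 to 32.6 CPM in the control Ab-treated mice and to 6.78 to 16.2 CPM in the anti-BAFF Ab-treated mice. Adipocyte markers (Adipoq, Plin1, Cidec and Lep) summed to 32.4 to 53.1 CPM. None of the fibroblast, mesothelial, endothelial, mural or macrophage markers was at 0 in any mouse, while the neutrophil marker Ly6g was at 0 in mice 2, 6, 7 and 10 and the epididymis gene Lcn5 in mice 5, 6 and 9. The part of these cell mixtures in the collagen values was not tested. Results that rest on mouse 1 are given with and without it.

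Per length, mean levels of the collagen genes ran from 468 down to 0.0101 FPKM (Col9a2). Expressed as FPKM, which divides the level by gene length so that genes can be set side by side, Col3a1 had the highest mean level over the 8 mice, followed by Col1a1 (300.4 FPKM), Col6a1 (279 FPKM), Col4a1 (251 FPKM), Col1a2 (197 FPKM) and Col4a2 (166 FPKM), so that the leading chains came from the fibrillar, the basement membrane and the collagen VI class alike. Fibrillar chains made up 41.0 to 55.4% of the summed collagen FPKM of a mouse, collagen VI chains 22.2 to 33.5%, basement membrane chains 20.04 to 25.2% and all other chains 2.08 to 3.06%. Collagen genes together took 1.70 to 2.49% of all counts of a library.

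**Figure D1:**
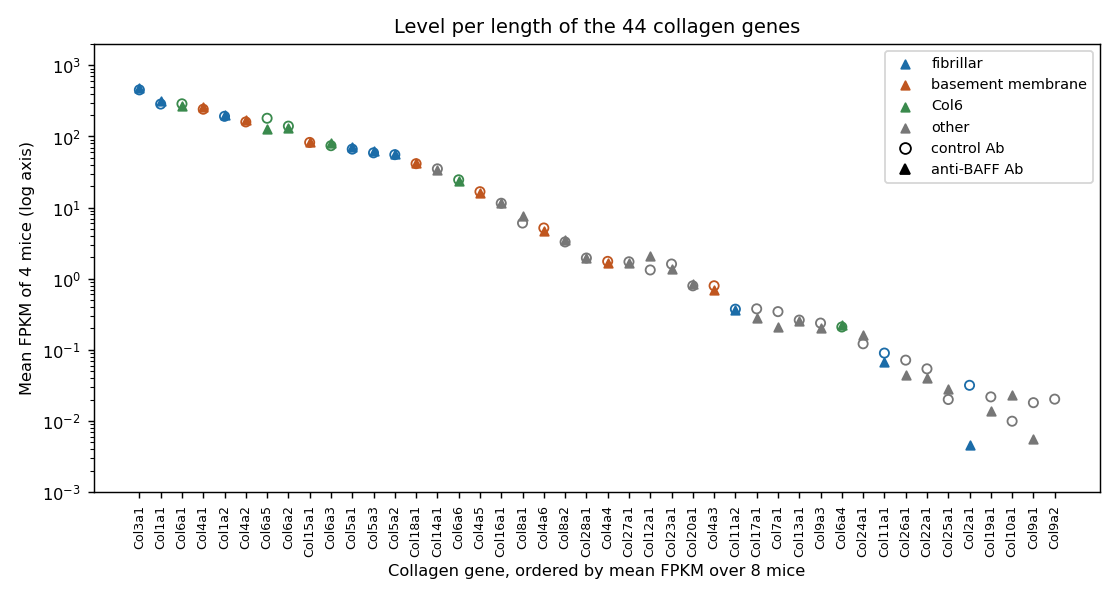
Mean level per length (FPKM, log axis) of the 44 collagen genes, ordered by their mean over the 8 mice. Open circles are the means of the 4 control Ab-treated mice and filled triangles those of the 4 anti-BAFF Ab-treated mice, coloured by class. Both symbols lie close together from Col3a1 (468 FPKM) down to the chains near 0.1 FPKM, and the anti-BAFF Ab mean of Col9a2 was 0 and is not drawn.

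Summed over all 44 genes, the collagen level was 25012, 18711, 16846 and 18487 CPM in control Ab-treated mice 1, 2, 6 and 9, and 20883, 19019, 20432 and 20070 CPM in anti-BAFF Ab-treated mice 5, 7, 8 and 10. Mouse 1 was the highest of all and the other 3 control mice were below every anti-BAFF Ab-treated mouse, so the groups overlapped through mouse 1. The means were 19764 ± 3596 CPM (SD, n = 4) and 20101 ± 794 CPM (SD, n = 4), a log2 ratio of 0.02. Without mouse 1 the control mean was 18014 ± 1018 CPM (SD, n = 3) and the log2 ratio 0.16.

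The 9 fibrillar chains had a median log2 fold change of 0.07 over the 8 tested, 6 above 0 and 2 below, and none was called. Col3a1 (chromosome 1, 45311538 to 45349706), the single chain of collagen III in distensible tissue, measured 6967, 4108, 3063 and 3616 CPM in control Ab-treated mice 1, 2, 6 and 9. In anti-BAFF Ab-treated mice 5, 7, 8 and 10 it measured 5491, 4676, 4456 and 4404 CPM. Mouse 1 was the highest and the other 3 control mice the lowest, so the control values spanned the anti-BAFF Ab values on both sides. The log2 fold change was 0.10 (SE 0.24, 95% interval -0.44 to 0.64).

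Col1a1 and Col1a2 encode the chains of collagen I, the main collagen of connective tissue. Col1a1 (chromosome 11, 94936224 to 94953042) measured 2543, 1923, 1432 and 1601 CPM with control Ab and 2824, 1809, 1936 and 1706 CPM with anti-BAFF Ab (log2 fold change 0.14, SE 0.22). Col1a2 (chromosome 6, 4504814 to 4541544) measured 2820, 2340, 2109 and 2281 CPM with control Ab and 2802, 2301, 2526 and 2396 CPM with anti-BAFF Ab (log2 fold change 0.07, SE 0.12). For both chains mouse 1 of the control group and mouse 5 of the anti-BAFF Ab group were the highest pair, and the remaining 6 mice overlapped. The ratio of the chains per length, Col1a1 over Col1a2, lay between 1.29 and 1.91 in the 8 mice, with the highest value in mouse 5.

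Collagen V chains co-assemble with collagen I and set fibril diameter. Col5a1 (chromosome 2, 27886425 to 28039514) measured 649, 587, 500.2 and 519 CPM with control Ab and 664, 552, 602 and 629 CPM with anti-BAFF Ab (log2 fold change 0.12, SE 0.11). Col5a2 (chromosome 1, 45374321 to 45503282) measured 715, 488, 455 and 471 CPM with control Ab and 514, 541, 559.8 and 536 CPM with anti-BAFF Ab (log2 fold change 0.01, SE 0.15). Col5a2 repeated the order of Col3a1, with mouse 1 above and the other control mice below all anti-BAFF Ab-treated mice. Col5a3 (chromosome 9, 20770050 to 20815067) measured 529.6, 387, 330.0 and 357 CPM with control Ab and 392, 421, 436 and 428 CPM with anti-BAFF Ab (log2 fold change 0.06, SE 0.14). It had the same order of groups. The chains of cartilage collagens were low: Col11a1 and Col11a2 stayed at or below 3.22 CPM in every mouse, and Col2a1, with 21 counts over all mice, was not tested.

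The 8 basement membrane chains were all tested, with a median log2 fold change of -0.02, 4 above 0 and 4 below. Col4a1 and Col4a2 form the trimer found in nearly all basement membranes. The genes lie head to head on chromosome 8, where the count table gives Col4a1 as 11198423 to 11312826 on the minus strand and Col4a2 as 11312805 to 11449287 on the plus strand, with 22 bases in common. The strand setting of the counting is not given in the sources used here, so reads from those 22 bases cannot be told apart. RefSeq's promoter windows (GRCm38.p6, 250 bases before to 50 after the start) are printed because both genes start from the same stretch of DNA. Each is read 5′ to 3′ on its own gene's strand, and capitals mark the 78 bases (chr8:11312777-11312854) that both windows hold, on opposite strands.
Col4a1: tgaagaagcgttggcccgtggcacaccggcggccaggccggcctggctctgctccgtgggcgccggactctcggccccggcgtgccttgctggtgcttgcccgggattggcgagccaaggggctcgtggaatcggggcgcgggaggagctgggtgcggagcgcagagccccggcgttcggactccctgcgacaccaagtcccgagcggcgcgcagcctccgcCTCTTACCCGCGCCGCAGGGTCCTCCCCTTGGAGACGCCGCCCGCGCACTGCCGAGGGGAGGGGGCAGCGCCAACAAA
Col4a2: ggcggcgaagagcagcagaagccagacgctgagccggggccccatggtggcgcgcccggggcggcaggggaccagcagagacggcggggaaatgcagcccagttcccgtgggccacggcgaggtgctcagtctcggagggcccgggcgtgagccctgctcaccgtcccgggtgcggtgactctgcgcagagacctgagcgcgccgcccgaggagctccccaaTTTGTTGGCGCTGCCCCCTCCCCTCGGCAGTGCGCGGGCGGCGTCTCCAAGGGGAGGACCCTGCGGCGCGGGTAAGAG

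The Col4a1 window spans chr8:11312777-11313076 and the Col4a2 window chr8:11312555-11312854. G and C made up 74.0% of the Col4a1 window and 73.7% of the Col4a2 window, against a median of 52.7% over the 32851 windows of the reference. On both strands, the letters GGGCGG (GC box) occurred 1 time in the Col4a1 window and 3 times in the Col4a2 window, 1 of them within the shared bases, and the letters CCAAT 1 time in each window. TATAAA occurred in neither. GGGCGG was held by 35.7% of all windows, CCAAT by 37.4% and TATAAA by 13.6%. Of the 38 windows matched to 35 of the 44 collagen genes, 60.5% held GGGCGG, 34.2% CCAAT and 13.2% TATAAA. These are matches of letters and do not show binding.

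Col4a1 measured 2271, 1719, 1644 and 1585 CPM in the control Ab-treated mice and 1658, 1984, 2098 and 2031 CPM in the anti-BAFF Ab-treated mice. Col4a2 measured 1414, 1008, 928 and 890.1 CPM in the control Ab-treated mice and 1021, 1154, 1214 and 1168 CPM in the anti-BAFF Ab-treated mice. In both genes mouse 1 was the highest of all 8, mice 7, 8 and 10 came next, and mouse 5 lay among the remaining control mice for Col4a1 and just above them for Col4a2. The log2 fold changes were 0.11 (SE 0.14) and 0.10 (SE 0.15).

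Col15a1 and Col18a1 encode the multiplexin chains, which lie at the outer side of basement membranes. Col15a1 (chromosome 4, 47208161 to 47313167) measured 710, 472, 460 and 454 CPM with control Ab and 471, 550.03, 577 and 530.2 CPM with anti-BAFF Ab (log2 fold change 0.02, SE 0.16). Mouse 1 again was far above the 3 other control mice. Col18a1 (chromosome 10, 77052178 to 77166548) measured 315, 291, 286 and 273 CPM with control Ab and 257, 329, 305 and 301 CPM with anti-BAFF Ab (log2 fold change 0.03, SE 0.09). Mouse 7 was the highest and mouse 5 the lowest, both of the anti-BAFF Ab group.

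The 4 remaining collagen IV chains, which replace Col4a1 and Col4a2 in specialised basement membranes, were less abundant and ran the other way in mouse 1. Col4a5 (chromosome X, 141475385 to 141689234) measured 58.6, 122, 122 and 147 CPM with control Ab and 93.0, 75.2, 123 and 136 CPM with anti-BAFF Ab. Col4a6 (chromosome X, 141165403 to 141474076) measured 18.7, 42.6, 50.04 and 53.5 CPM with control Ab and 37.4, 27.6, 44.3 and 40.9 CPM with anti-BAFF Ab. Mouse 1 was the lowest for both, and mice 7 and 5 were the next lowest. Col4a4 measured 8.44, 20.5, 21.2 and 24.3 CPM with control Ab and 17.4 to 18.3 CPM with anti-BAFF Ab, and Col4a3 3.78, 8.45, 9.80 and 9.66 CPM with control Ab and 5.18 to 8.05 CPM with anti-BAFF Ab. For these 2 chains too mouse 1 was below every other mouse. The log2 fold changes of the 4 chains lay between -0.21 and -0.07.

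The 6 collagen VI chains had a median log2 fold change of -0.08, 2 above 0 and 4 below. Col6a1, Col6a2 and Col6a3 form the common collagen VI monomer. Col6a1 (chromosome 10, 76708792 to 76726168) measured 1463, 1125, 1164 and 1292 CPM with control Ab and 1012, 1111, 1283 and 1331 CPM with anti-BAFF Ab (log2 fold change -0.09, SE 0.13). Col6a2 (chromosome 10, 76595762 to 76623630) measured 1430, 996, 1052 and 1181 CPM with control Ab and 945, 1021, 1168 and 1206 CPM with anti-BAFF Ab (log2 fold change -0.10, SE 0.14). Both genes put the 8 mice in nearly the same order, with mouse 1 highest and mouse 5 lowest. Col6a3 (chromosome 1, 90765923 to 90843971) measured 1206, 774, 798 and 774 CPM with control Ab and 895, 975, 973 and 971 CPM with anti-BAFF Ab (log2 fold change 0.10, SE 0.15). Here the 3 other control mice were below all 4 anti-BAFF Ab-treated mice and mouse 1 above them.

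Col6a5 (chromosome 9, 105856078 to 105960643) was the collagen VI chain with the lowest unadjusted p. It encodes one of the long chains that can take the place of Col6a3, and it measured 1318, 1571, 1746 and 2161 CPM in control Ab-treated mice 1, 2, 6 and 9. In anti-BAFF Ab-treated mice 5, 7, 8 and 10 it measured 1128, 819, 1357 and 1492 CPM. The lowest control value, that of mouse 1, was below the values of mice 8 and 10, so the groups overlapped, although the 3 other control mice were above every anti-BAFF Ab-treated mouse. The log2 fold change was -0.50 (SE 0.21, 95% interval -0.97 to -0.03), with an unadjusted p of 0.039 and an adjusted p of 1.00 from edgeR's quasi-likelihood test. It kept its sign whichever mouse was left out (-0.63 to -0.36), with an unadjusted p from 0.0144 to 0.118 in edgeR's quasi-likelihood test. Col6a6, the neighbouring gene, measured 112, 255, 239 and 295 CPM with control Ab and 214, 137, 248 and 265 CPM with anti-BAFF Ab (log2 fold change -0.06, SE 0.30). Mouse 7 was the lowest mouse for Col6a5 and the second lowest for Col6a6. Col6a4 stayed between 1.54 and 2.15 CPM.

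Of the 21 other chains, 14 were tested, with a median log2 fold change of -0.01, 6 above 0 and 8 below. Col12a1 (chromosome 9, 79598991 to 79718831), whose chain decorates the surface of collagen I fibrils, measured 17.6, 20.8, 21.4 and 21.1 CPM in control Ab-treated mice 1, 2, 6 and 9. In anti-BAFF Ab-treated mice 5, 7, 8 and 10 it measured 44.8, 32.5, 28.8 and 19.2 CPM. Mice 5, 7 and 8 were above all control mice, while mouse 10 lay within the control range. The log2 fold change was 0.63 (SE 0.22, 95% interval 0.13 to 1.13), with an unadjusted p of 0.019 and an adjusted p of 1.00 from edgeR's quasi-likelihood test. Mouse 5, the mouse with the highest neutrophil marker sum, had the highest value. Mouse 1, with the next highest sum (13.0 CPM), had the lowest. Without mouse 5 the log2 fold change was 0.39 (SE 0.18, unadjusted p 0.0596 in edgeR's quasi-likelihood test). The part of the cells behind these markers in the Col12a1 value was not tested.

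Col14a1, another fibril-associated chain, was the most abundant gene of this class at 34.7 FPKM. It measured 221, 267, 211 and 284 CPM with control Ab and 203, 241, 252 and 267 CPM with anti-BAFF Ab (log2 fold change -0.03, SE 0.12). The values of its groups were interleaved. Col16a1, also fibril-associated, measured 88.3, 77.6, 72.3 and 72.8 CPM with control Ab and 74.3, 84.4, 82.8 and 69.5 CPM with anti-BAFF Ab (log2 fold change -0.00, SE 0.10). Col8a1, a network-forming chain of vessel walls, measured 79.3, 28.2, 44.04 and 38.5 CPM with control Ab and 57.9, 74.4, 57.5 and 46.3 CPM with anti-BAFF Ab (log2 fold change 0.31, SE 0.29). Its 4 anti-BAFF Ab values lay above 3 of the control mice and below mouse 1. Its partner chain Col8a2 measured 13.6, 13.5, 14.7 and 17.2 CPM with control Ab and 14.7, 16.8, 19.2 and 12.6 CPM with anti-BAFF Ab (log2 fold change 0.10, SE 0.15). Col28a1 measured 6.70, 9.16, 12.0 and 10.5 CPM with control Ab and 9.22, 7.71, 10.2 and 11.7 CPM with anti-BAFF Ab (log2 fold change 0.02, SE 0.20). The groups of both genes overlapped.

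Col23a1, a transmembrane collagen, measured 3.97, 8.57, 12.8 and 11.6 CPM with control Ab and 5.86, 8.33, 8.48 and 8.66 CPM with anti-BAFF Ab (log2 fold change -0.23, SE 0.32). Its log2 fold change was -0.50 without mouse 1, -0.14 without mouse 5, -0.04 without mouse 6 and -0.10 without mouse 9. Col17a1, an epithelial hemidesmosome chain, measured 0.930, 3.61, 2.49 and 1.67 CPM with control Ab and 1.01, 3.21, 1.11 and 1.05 CPM with anti-BAFF Ab (log2 fold change -0.44, SE 0.51). Its log2 fold change was -0.07 without mouse 2 and -1.05 without mouse 7, and over all mice left out in turn it stayed between these values. Its highest mice, 2 and 7, were also the mice with the highest epididymis marker sums. Mouse 6 came next in both (674 CPM of these markers), but mouse 5 had 652 CPM of them and 1.01 CPM of Col17a1. The part of that tissue in these values was not tested. Col7a1, the anchoring fibril chain of epithelia, measured 2.54, 5.67, 3.66 and 2.29 CPM with control Ab and 1.88, 3.10, 2.15 and 1.38 CPM with anti-BAFF Ab. Its log2 fold change was the farthest from 0 of the 36 tested genes (-0.73, SE 0.35, unadjusted p 0.067 in edgeR's quasi-likelihood test). Mouse 2 was its highest mouse, and the groups overlapped. Of the remaining tested chains, Col27a1 lay between 16.4 and 26.7 CPM, Col20a1 between 3.04 and 5.55 CPM, and Col13a1, Col9a3 and Col24a1 were each below 2 CPM.

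The 8 genes that were not tested held few counts. Col26a1 had 61 counts over the 8 libraries, Col22a1 56, Col25a1 40, Col2a1 21, Col19a1 15, Col9a1 8, Col10a1 7 and Col9a2 4. Col2a1 had 3 to 6 counts in each control Ab-treated mouse and 0 to 3 in each anti-BAFF Ab-treated mouse, at or near the floor of 3 counts. These genes include the cartilage chains of collagens II, IX and X, of which only Col9a3 passed the filter.

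**Figure D2:**
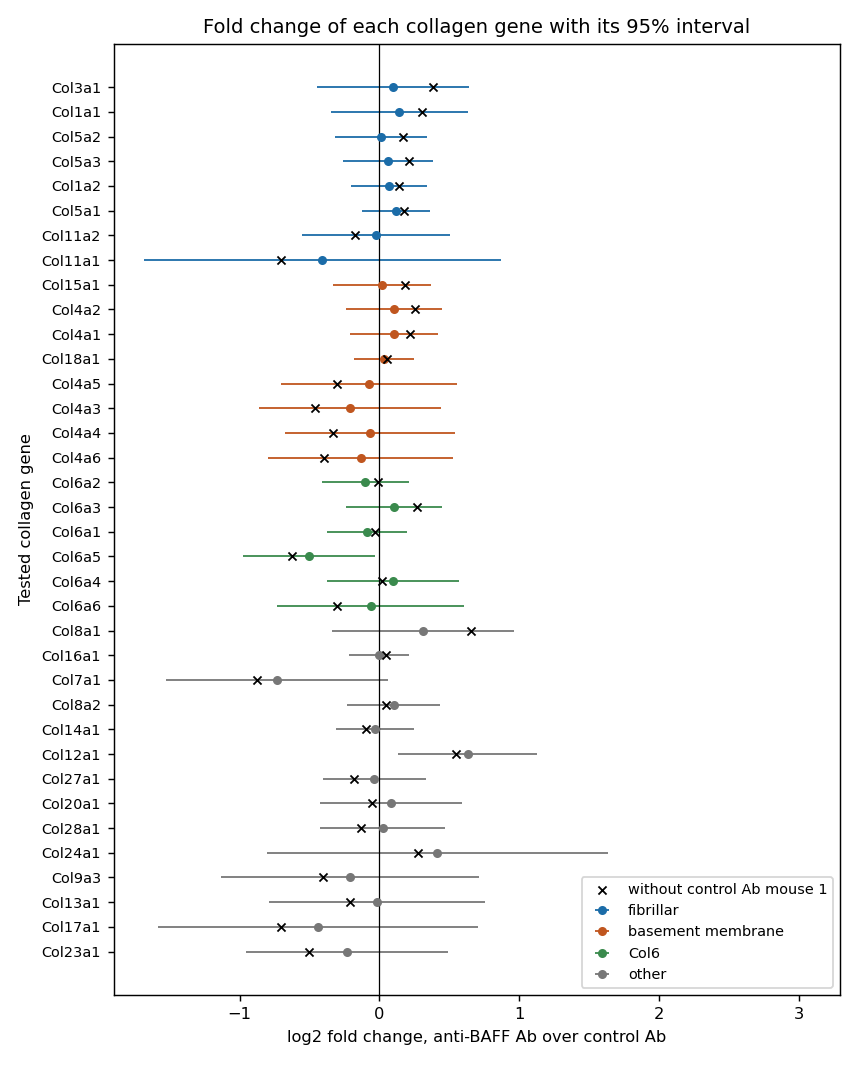
Log2 fold change (anti-BAFF Ab over control Ab) of the 36 tested collagen genes with the 95% interval of the edgeR fit to all 8 mice, coloured by class, and crosses for the value without control Ab mouse 1. The intervals of Col12a1 (0.63) and Col6a5 (-0.50) do not reach 0, and the crosses lie to the right of the points for the abundant fibrillar and basement membrane chains and to the left for Col4a3 to Col4a6.

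Mouse 1 was often the highest or the lowest mouse for a collagen gene, as it was over all genes tested. It was the highest of the 8 mice for 12 and the lowest for 13 of the 36 tested genes (33.3% and 36.1%), against the 26.7% and 26.2% of all genes given above. The genes in which it was highest were Col1a2, Col3a1, Col5a2, Col5a3, Col4a1, Col4a2, Col15a1, Col6a1, Col6a2, Col6a3, Col8a1 and Col16a1. Those in which it was lowest were Col4a3, Col4a4, Col4a5, Col4a6, Col6a6, Col11a2, Col12a1, Col13a1, Col17a1, Col20a1, Col23a1, Col27a1 and Col28a1. All 4 minor collagen IV chains were thus lowest in the mouse in which Col4a1 and Col4a2 were highest. Mouse 1 also had the lowest mesothelial, fibroblast, endothelial and mural marker sums, and whether these had a part in its collagen values was not tested.

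**Figure D3:**
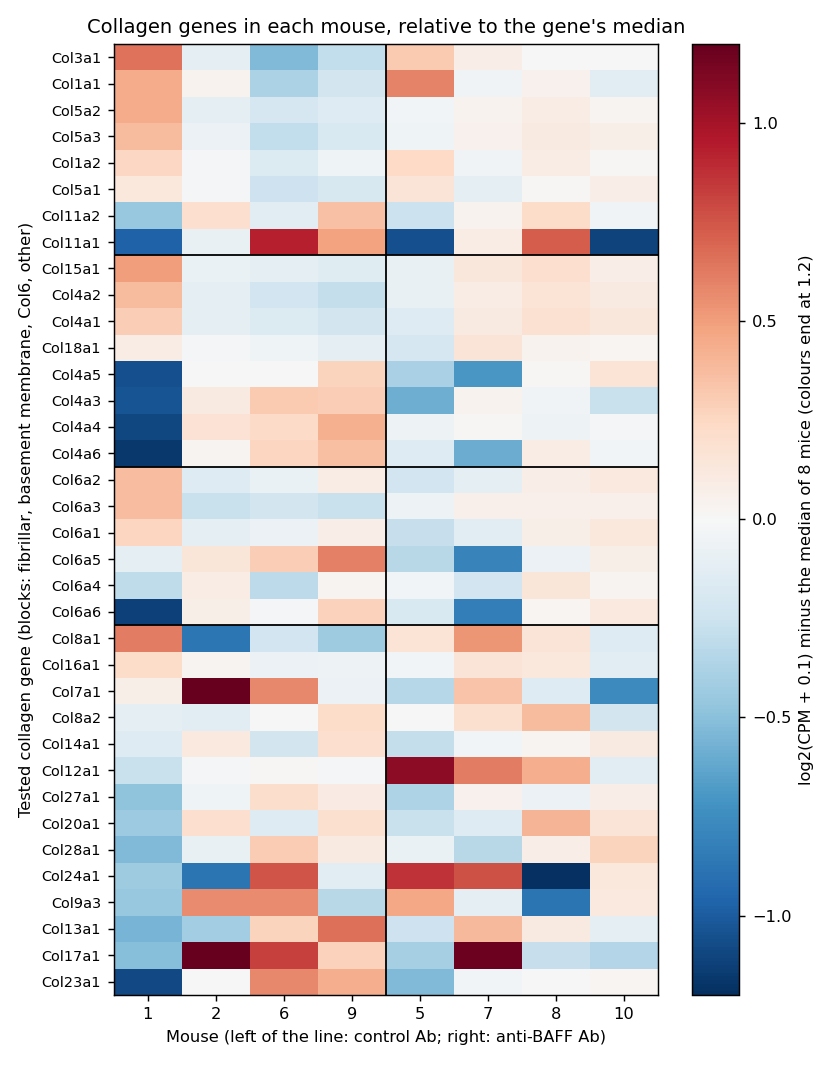
Level of the 36 tested collagen genes in each mouse, as log2(CPM + 0.1) minus the gene's median over the 8 mice, with control Ab-treated mice left of the vertical line and anti-BAFF Ab-treated mice right of it. Horizontal lines part the fibrillar, basement membrane, collagen VI and other chains, and mouse 1 shows red for most of the abundant chains and blue for Col4a3, Col4a4, Col4a5, Col4a6 and Col6a6.

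With mouse 1 left out, 0 collagen genes had an adjusted p under 0.05 by edgeR's quasi-likelihood test (0.0123% of all genes did), but 14 had an unadjusted p under 0.05, 8 higher and 6 lower, against 10.5% of all genes (5.33% higher and 5.18% lower). The 8 with higher values were Col3a1 (log2 fold change 0.39, SE 0.12), Col5a2, Col5a3, Col4a1 (0.22, SE 0.09), Col4a2 (0.26, SE 0.08), Col15a1, Col6a3 (0.27, SE 0.07) and Col8a1 (0.66, SE 0.19). The 6 with lower values were Col6a5 (-0.63, SE 0.20), Col4a3, Col4a4, Col4a6, Col23a1 and Col7a1. All 8 higher genes were among those in which mouse 1 was the highest mouse, so leaving it out lowers their control mean. In Col4a3, Col4a4, Col4a6 and Col23a1 it was the lowest mouse, so leaving it out raises their control mean. These counts are therefore not a separate test of the antibodies. The class medians were then 0.17 for fibrillar chains, -0.12 for basement membrane chains, -0.02 for collagen VI and -0.12 for other chains. Without mouse 5, which had the highest neutrophil marker sum, 0 collagen genes had an unadjusted p under 0.05 (2.59% of all genes). Without mouse 2 it was 1 gene (1.69% of all genes) and without mouse 6 also 1 (1.77% of all genes). Without mice 1 and 5 together 11 did so, 8 higher and 3 lower (9.81% of all genes, 4.9% higher and 4.92% lower). Without mice 2 and 7, those with the highest epididymis markers, 0 did (1.47% of all genes).

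The proportions of collagen chains were compared as log2 ratios of FPKM in each mouse, which do not depend on library size. Col3a1 and Col1a1 belong to different molecules, collagens III and I, while the other pairs are chains of the same collagen type. Col4a1 over Col4a2 lay between 1.42 and 1.58 in the 8 mice, Col6a1 over Col6a2 between 1.94 and 2.15, Col3a1 over Col1a1 between 1.30 and 1.83 and Col5a1 over Col5a2 between 1.02 and 1.46. Levels per length are not protein proportions, since they depend on the gene lengths used. Col6a3 over Col6a1 was 0.302, 0.252, 0.251 and 0.219 with control Ab and 0.324, 0.321, 0.278 and 0.267 with anti-BAFF Ab. It was the ratio with the largest difference of group means (0.22 on the log2 scale), and mouse 1 lay within the anti-BAFF Ab range. Its two-sided exact permutation p was 0.143 (Benjamini-Hochberg 0.857 over the 6 ratios). The other 5 ratios differed by -0.01 to 0.08 on the log2 scale, with exact permutation p between 0.571 and 0.943. The smallest p that 4 mice against 4 allow is 0.0286.

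Collagen genes that lie side by side were compared over the 8 mice, a comparison chosen after their values were seen. There were 7 pairs within 200000 bases, and Pearson's r and Spearman's rho were computed on log2 CPM with two-sided exact permutation p-values and their Benjamini-Hochberg adjusted values for 7 pairs. For Col4a1 and Col4a2, whose promoters are printed above, r was 0.974 and rho 0.976 (exact permutation p = 7.44e-05, adjusted 0.00026, and p = 0.000397, adjusted 0.00139). It was 0.964 without the 2 mice farthest from the median of Col4a1 and 0.967 without mouse 1. For Col4a3 and Col4a4, head to head with 71 bases between them, r was 0.900 and rho 0.905 (exact permutation p = 0.000446, adjusted 0.00104, and p = 0.00456, adjusted 0.0106), and r was 0.782 without the 2 farthest mice and 0.779 without mouse 1. For Col4a5 and Col4a6, head to head with 1308 bases between them, r was 0.953 and rho 0.833 (exact permutation p = 0.00067, adjusted 0.00117, and p = 0.0154, adjusted 0.0215), and r was 0.703 without the 2 farthest mice and 0.898 without mouse 1. Thus all 3 head-to-head collagen IV pairs followed each other across mice, but Col4a1 and Col4a2 were highest in mouse 1 and the other 4 chains lowest.

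**Figure D4:**
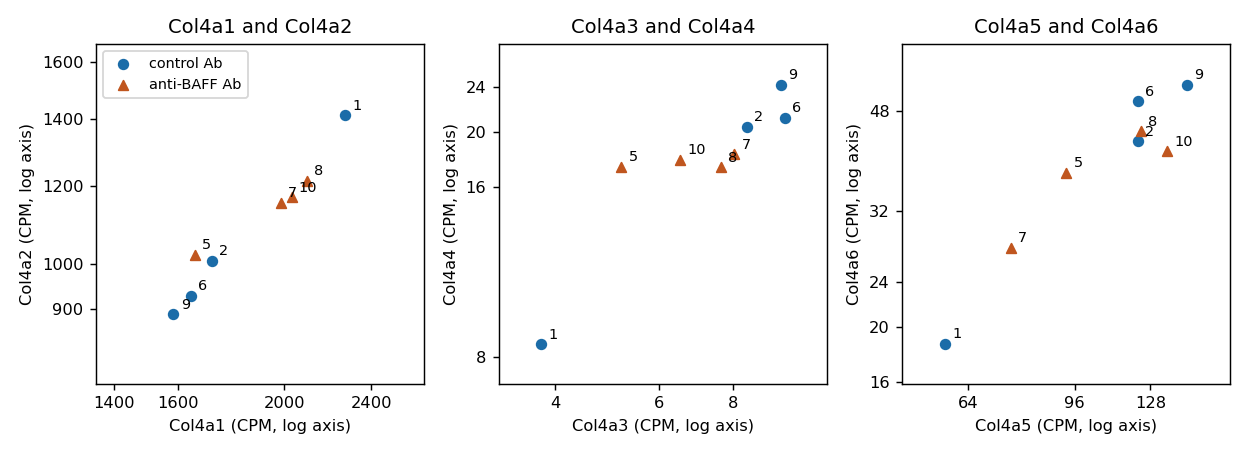
Levels (CPM, log axes) of the 3 head-to-head collagen IV gene pairs in the 8 mice, 1 point per mouse with its number, circles for control Ab and triangles for anti-BAFF Ab. Points rise together in each panel (r 0.974, 0.900 and 0.953), and mouse 1 lies at the top right for Col4a1 and Col4a2 and at the bottom left for the other pairs.

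Col6a1 and Col6a2, on the same strand, had r 0.979 and rho 0.976 (exact permutation p = 7.44e-05, adjusted 0.00026, and p = 0.000397, adjusted 0.00139), 0.988 without the 2 farthest mice and 0.986 without mouse 1. Col3a1 and Col5a2, tail to tail, had r 0.883 and rho 0.833 (exact permutation p = 0.00382, adjusted 0.00535, and p = 0.0154, adjusted 0.0215). For this pair r was 0.544 without mice 1 and 6, the 2 farthest, and 0.749 without mouse 1. With each mouse left out in turn r lay between 0.749 and 0.971. Col6a5 and Col6a6 had r 0.672 and rho 0.762 (exact permutation p = 0.0719, adjusted 0.0839, and p = 0.0368, adjusted 0.0429), with r 0.914 once mouse 1 was left out. Col6a4 and Col6a5 had r 0.274 and rho 0.143 (exact permutation p = 0.519 and 0.752, the same after adjustment). With the values of each mouse centred on the mean of its treatment group, r was 0.972 for Col4a1 and Col4a2, 0.918 for Col4a3 and Col4a4, 0.953 for Col4a5 and Col4a6, 0.978 for Col6a1 and Col6a2 and 0.890 for Col3a1 and Col5a2. It was 0.874 for Col6a5 and Col6a6 and 0.650 for Col6a4 and Col6a5, both higher than without centring. Among all 630 pairs of tested collagen genes the median r was -0.06. The neighbouring pairs ranked 2 (Col6a1 and Col6a2), 3 (Col4a1 and Col4a2), 14 (Col4a5 and Col4a6), 25 (Col4a3 and Col4a4), 32 (Col3a1 and Col5a2), 95 (Col6a5 and Col6a6) and 219 (Col6a4 and Col6a5) among them. Without mouse 1 the median r was 0.045, and the ranks in the same order of pairs were 1, 4, 20, 42, 49, 16 and 222. All such values share the same libraries and their cell mixtures.

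The genes that fold, process, bind, degrade or sense collagen were read from the same fit, in which the median log2 fold change of all genes was 0.00. By edgeR's quasi-likelihood test, 0 genes of the 7 lists had an adjusted p under 0.05, and 1 of their 99 tested genes (1.01%), Timp1, had an unadjusted p under 0.05, against 1.9% of all genes. Of the 20 folding and modification enzymes, 19 were tested, 12 above 0 and 7 below with a median log2 fold change of 0.02. Serpinh1, the collagen chaperone HSP47, was their most abundant gene per length at 249 FPKM (log2 fold change -0.08, SE 0.08). Of the 14 procollagen processing and cross-linking genes, 13 were tested, 10 above 0 and 3 below with a median of 0.06. The cross-linking oxidase Loxl1 led them at 82.5 FPKM (log2 fold change 0.12, SE 0.09).

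Of the 15 collagen-binding matrix genes, 10 were above 0 and 5 below with a median of 0.06. Dcn, the proteoglycan decorin that coats collagen fibrils, reached 637 FPKM (log2 fold change 0.06, SE 0.24), more than any collagen chain. Of the 13 basement membrane partners of collagen IV, 7 were above 0 and 6 below with a median of 0.01, and Nid1, which links laminin to collagen IV, led them at 152 FPKM (log2 fold change 0.05, SE 0.14). Mouse 1 was the lowest mouse for 10 of these 13 genes and the highest for 0 of them, while it was the highest for Col4a1 and Col4a2.

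Of the 16 genes for collagen breakdown and its inhibitors, 15 were tested, 13 above 0 and 2 below with a median of 0.12. Timp1, an inhibitor of matrix metalloproteinases, measured 81.3, 50.4, 74.1 and 66.7 CPM in control Ab-treated mice 1, 2, 6 and 9 and 132, 74.8, 94.0 and 77.9 CPM in anti-BAFF Ab-treated mice 5, 7, 8 and 10. Mouse 5 was the highest, and mice 7 and 10 lay below the control value of mouse 1. The log2 fold change was 0.48 (SE 0.20), with an unadjusted p of 0.045 and an adjusted p of 1.00 from edgeR's quasi-likelihood test. Timp2 was the most abundant gene of this list at 673 FPKM (log2 fold change 0.04, SE 0.17). Of the 10 collagen receptors, 9 were tested, 3 above 0 and 6 below with a median of -0.05, led by the integrin chain Itgb1 at 176 FPKM (log2 fold change 0.06, SE 0.08). Of the 15 regulators of collagen genes, 12 were above 0 and 3 below with a median of 0.13, led by the matricellular gene Ccn1 at 221 FPKM (log2 fold change 0.06, SE 0.13).

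The pathway lists also moved when mouse 1 was left out. In edgeR's quasi-likelihood test 0 of their genes then had an adjusted p under 0.05, but 16 of 99 (16.2%) had an unadjusted p under 0.05, 9 higher and 7 lower, against 10.5% of all genes. These genes are named after their values were seen. The 9 with higher values included the cross-linking oxidase Loxl2, the matrix genes Bgn, Postn and Thbs2 and the breakdown genes Mmp3 and Mmp12. The others were the metalloproteinase inhibitor Timp1, the inhibitory receptor Lair1 and the growth factor gene Pdgfb. The 7 with lower values were the galactosyltransferase Colgalt2, the basement membrane proteoglycan Agrn, the receptors Itga10, Itga11, Ddr1 and Adgrg1 and the growth factor gene Tgfb3. Mouse 1 was the highest mouse for Bgn, Postn, Mmp12, Lair1 and Pdgfb and the lowest for Agrn, Itga11, Ddr1, Adgrg1 and Tgfb3. For Loxl2, Thbs2, Mmp3, Timp1, Colgalt2 and Itga10 it was neither. With all 8 mice the log2 fold change was -0.07 for Postn and -0.06 for Mmp12, against 0.36 and 0.50 without mouse 1. The counts without mouse 1 are therefore not a separate test of the antibodies. Without mouse 1 the median log2 fold change was 0.08 for folding enzymes, 0.04 for processing genes, 0.01 for binding proteins and -0.12 for basement membrane partners. It was 0.15 for breakdown genes and their inhibitors, -0.21 for receptors and 0.10 for regulators, while that of all genes was -0.01.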

How the data were processed

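Bulk RNA of the SVF of gonadal WAT was sequenced for 8 mice (paired-end, NovaSeq, at a service laboratory). The authors deposited 1 table of raw counts per gene with 1 column per mouse, gene coordinates, biotypes and a gene length, an other value in bases, which was used here for FPKM. Per the labels the genome build was mm10. The aligner, the counting tool and its strand setting are not given in the sources used here. Groups and mouse numbers came from the sample titles. No batch is labelled, and whether cage mates or litters were shared is not stated. The p-values set the group difference against the spread between these mice and treat the mice as independent. Replicates differed by more than sampling noise in every pair (smallest chi-square per degree of freedom 7.32).

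The count test was that of edgeR 4.0.16, run under R 4.3.3 (genes kept by filterByExpr at a minimum count of 10, TMM, quasi-likelihood test without the robust option, treatment as the only term, prior degrees of freedom 3.14), with Benjamini-Hochberg adjustment over 15963 genes. Standard errors came from the F statistic. DESeq2 1.42.0 and limma 3.58.1 on log2(FPKM + 1) were alternatives, beside other scalings, other filters and leaving out mice. The pipeline was tested on simulated data. Ratios and correlations used Python 3.11.15 and scipy 1.17.1, with exact permutation tests (two-sided).

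The collagen genes, the pathway lists and the marker lists were chosen with earlier results of these data known. Values in every mouse are given for the main chains of collagens I, III, IV, V, VI, XV and XVIII, for the 5 other chains of highest FPKM, for chains with an unadjusted p under 0.05 and for chains with a mouse past Dixon's 95% limit. Further chains are given by range, apart from the minor collagen IV chains, Col6a6 and Col7a1, which were named after their values were seen. Of each pathway list, the gene of highest FPKM and those with an unadjusted p under 0.05 are named. Ccn1 was matched through its older symbol. The regulator, matrix and breakdown lists share Pdgfra, Dpt and Fap with the fibroblast markers. Promoter sequences and their build (GRCm38.p6) are RefSeq's, matched by symbol for 35 of 44 genes, and for 21 of these a RefSeq start equalled the start in the count table.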

Additional observations from a re-analysis of the deposited data

Results flagged for a closer look

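In 9 of 94 sets of 4 mice that were checked (collagen genes, class sums and chain ratios in each group), 1 mouse lay past Dixon's 95% limit. Chance alone gives about 1 in 20, or 4.7 of 94. Control Ab-treated mouse 1 accounted for 4 of them: it was high for Col15a1 (710 CPM against 454 to 472 CPM in the other control mice), Col6a3 (1206 CPM against 774 to 798 CPM) and Col5a2 (715 CPM against 455 to 488 CPM), and low for Col12a1 (17.6 CPM against 20.8 to 21.4 CPM). Anti-BAFF Ab-treated mouse 5 was low for Col6a3 (895 CPM against 971 to 975 CPM) and Col23a1 (5.86 CPM against 8.33 to 8.66 CPM). Mouse 5 was also high for the summed fibrillar chains (12688 CPM against 10102 to 10522 CPM) and low for the log2 ratio of Col4a1 to Col4a2 (0.53 against 0.61 to 0.62). Anti-BAFF Ab-treated mouse 7 was high for Col17a1 (3.21 CPM against 1.01 to 1.11 CPM).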

How the results depend on the processing

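No collagen gene passed an adjusted p of 0.05 under any of the alternatives run, nor did any gene of the 7 pathway lists. With 4 mice per group, differences inside the 95% intervals of the report were not excluded. The intervals are not adjusted for the number of genes tested and are not limits of detection. The number of all genes past that threshold was 9, against 70 with DESeq2, 19 without a filter on low counts, 2 with the robust option, 0 with immunoglobulin genes left out, 3 without mice 2 and 7, 2 without mice 1 and 5, and 2 to 9 with 1 mouse left out. Collagen genes at an unadjusted p under 0.05 numbered 2, against 0 without mice 2 and 7, 11 without mice 1 and 5 (an alternative added after seeing the data), and 0 to 14 with 1 mouse left out. The cause of these moves was not tested. Of the fold changes of named chains, 13 values turned sign under an alternative other than leaving out 1 mouse, each within 0.11 of 0. With upper-quartile scaling these were Col15a1 (-0.00013), Col5a2 (-0.0081) and Col28a1 (-0.0039), without a filter Col5a2 (-0.0024), and on log2(FPKM + 1) Col16a1 (0.00023). Without mice 1 and 5 they were Col6a1 (0.036), Col6a2 (0.053), Col16a1 (0.068) and Col28a1 (-0.11). Without mice 2 and 7 they were Col15a1 (-0.057), Col5a2 (-0.044), Col18a1 (-0.035) and Col8a1 (-0.016). Leaving out each mouse in turn moved the log2 fold change across 0 for 11 chains: Col3a1 (-0.042 to 0.39), Col1a1 (-0.059 to 0.31), Col1a2 (-0.0026 to 0.14), Col15a1 (-0.040 to 0.19), Col5a3 (-0.018 to 0.21), Col5a2 (-0.054 to 0.17), Col18a1 (-0.031 to 0.083), Col14a1 (-0.098 to 0.046), Col16a1 (-0.056 to 0.051), Col8a2 (-0.013 to 0.20) and Col28a1 (-0.13 to 0.15). No paired analysis was possible because the mouse numbers are not shared between the groups.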
